A study of Mus musculus with 16 samples.

Results

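The liver makes most of the complement and clotting proteins of blood plasma. This report describes 46 mouse genes of these cascades, of 25719 genes in the table, in whole liver of mice on normal chow (NCD) or on a diet that brings on steatosis and steatohepatitis (SSD). The members were chosen by name and role: 41 encode proteins that hepatocytes secrete, 3 encode the chains of C1q (C1qa, C1qb and C1qc), which liver macrophages make, and the other two are Cfp (properdin, made by myeloid cells) and Cfd (adipsin, made mainly by fat cells). All 46 had a mean normalized count of at least 10 in every comparison and were tested in each.

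Each RNA-seq library was the whole liver of 1 male mouse, 8 to 12 weeks old, held for 3 weeks on its diet. There were 4 WT (C57BL6J) mice on NCD (replicates 1, 2, 3 and 5), 5 WT mice on SSD, 4 Klrk1-/- mice on NCD and 3 Klrk1-/- mice on SSD. The SSD is enriched in fat, fructose and cholesterol. Klrk1 encodes NKG2D, an activating receptor of NK cells and some T cells, and the sources used here name no promoter or cell type that limits the knockout. The strain label of the knockout mice is NKG2D. The labels number the mice and name no litter, cage or extraction day. Each library held 19892025 to 28936707 reads assigned to genes. The normalized count of Klrk1 was 20.1 to 71.1 in the 9 WT livers and 0.966 to 8.71 in the 7 Klrk1-/- livers. In whole tissue, fewer cells of a type and less RNA per cell cannot be told apart.

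Complement starts when C1q, mannose-binding lectins or the alternative loop set off a chain of proteases that split C3, and it ends with C5 to C9 assembling a pore in the target membrane. Coagulation runs through serine proteases, many of them dependent on vitamin K, to thrombin, which turns fibrinogen into fibrin. Inhibitors and plasmin limit and dissolve the clot. In healthy liver hepatocytes transcribe nearly all of these genes at high level, whereas Kupffer cells, the resident macrophages, carry C1q.

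In WT mice the SSD lowered most of the hepatocyte-secreted genes and raised part of the macrophage genes. Of the 41 hepatocyte-secreted members, 35 fell and none rose (limma on log2(normalized count + 1), adjusted p under 0.05 over 13091 genes). Over all genes tested in WT mice, 17.6% passed as lower and 17.3% as higher on SSD. The median log2 fold change was -0.65 over the 41 members and -0.00 over all genes. In 34 of the 41 members every SSD value lay under every NCD value, against 15.5% of all genes. The 6 that did not pass were C3, Cfb, F13b, Pros1, F5 and Kng2, with log2 fold changes from -0.26 to 0.13. Of the 5 other members, C1qb, C1qc, Cfp and Cfd rose and C1qa did not pass. The calls depended on single mice. Without WT NCD replicate 1 or 2 limma called 0 members higher and 30 or 31 lower, and without WT NCD replicate 5 or WT SSD replicate 4 it called 1 higher. Over all genes these fits called from 1729 of 13139 (without WT NCD replicate 1) to 1983 of 13090 (without WT NCD replicate 5) higher. Without WT NCD replicate 1 or 2 they called 1885 or 2047 lower. Over the 9 mice left out in turn, the log2 fold change ranged from 0.49 to 0.85 for C1qb and from 0.51 to 0.84 for C1qc. It ranged from 0.25 to 0.59 for C1qa and from 2.70 to 4.43 for Cfd.

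The same diet contrast in Klrk1-/- mice gave 22 lower and 0 higher members, all 22 of them hepatocyte-secreted, against 16% lower and 13.4% higher of 12904 genes. Of the 46 members, 29 reached an unadjusted p under 0.05 in limma, beside 5336 of the 12904 genes. For higher members the counts were 0 with edgeR and 1 with DESeq2 (C1qc). The median log2 fold change of the 41 hepatocyte-secreted members was -0.30, against -0.00 for all genes. In 24 of the 41 members the SSD values lay under all NCD values, against 19.7% of all genes. With 4 mice against 3, an exact permutation test of a single gene cannot go below p = 0.0571, and in WT mice (4 against 5) it cannot go below 0.0159. The WT contrast rests on 9 mice and the Klrk1-/- contrast on 7, so the counts of calls in the 2 genotypes are not compared, and a member that passed in WT mice alone is not thereby shown to respond differently (the test of that difference is given after the genotype comparisons).

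**Figure D1:**
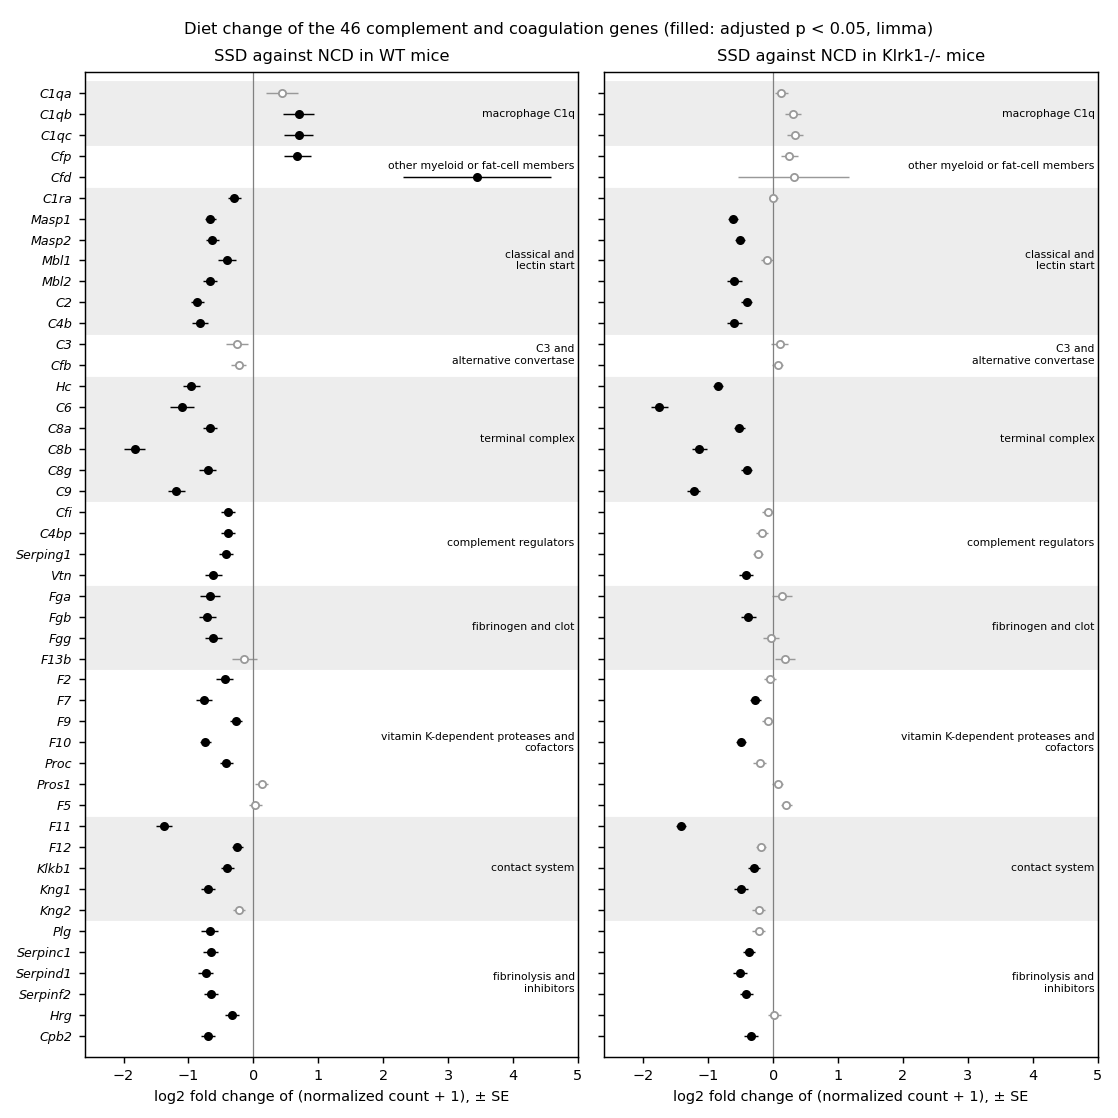
Log2 fold change of each of the 46 members on SSD against NCD (x axis, log2 of normalized count + 1; points ± SE), in WT mice on the left and Klrk1-/- mice on the right, grouped by role and filled where the adjusted p was under 0.05 in limma. Nearly all filled points lie left of 0, and C8b, F11, C9 and C6 lie farthest left in both genotypes; with every library scaled to the same total, 8 hepatocyte-secreted members in WT and 11 in Klrk1-/- mice change sign.

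The direction of small changes depends on how the libraries are scaled. The deposited values were divided by size factors, and their totals were lower on SSD, with medians of 25995266 on NCD and 20913201 on SSD in WT mice and of 26741399 and 22511101 in Klrk1-/- mice. Scaling every library to the same total moved the all-gene median to 0.34 in WT and 0.25 in Klrk1-/- mice (log2 fold change). Under that scaling 23 hepatocyte-secreted members fell and 2 rose (Pros1 and F5) in WT mice. In Klrk1-/- mice 11 fell and 7 rose (C1ra, C3, Cfb, F13b, Pros1, F5 and Hrg). Over all genes 48.2% then passed as higher and 5.50% as lower in WT mice, and 37.4% and 6.25% in Klrk1-/- mice. Since it shifts all genes alike, it leaves the members' distance from the all-gene median nearly as it was. Quantile normalization does not: the 41 members' median was then -0.14 in WT and -0.15 in Klrk1-/- mice, with 17 and 15 of them lower and 1 higher in each, beside 15.9% lower and 15.5% higher of all genes in WT and 14.0% and 14.6% in Klrk1-/- mice. With the same total in every library, C1ra, Mbl1, Cfi, C4bp, Serping1, Fga, F2, F9, Proc, F12, Klkb1 and Hrg lost their calls in WT mice. In Klrk1-/- mice C2, C8g, Vtn, Fgb, F7, Klkb1, Kng1, Serpinc1, Serpind1, Serpinf2 and Cpb2 lost theirs. Of the 8 members that changed sign in WT mice under that scaling, C1ra, F9, F12 and Hrg had passed as lower with the size factors. The 11 members that fell in Klrk1-/- mice under both scalings were C4b, C6, C8a, C8b, C9, F10, F11, Hc, Masp1, Masp2 and Mbl2. As a share of all reads, the 46 members together took 4.01 to 4.40% in WT NCD, 3.43 to 3.80% in WT SSD, 3.47 to 3.99% in Klrk1-/- NCD and 3.54 to 4.01% in Klrk1-/- SSD.

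The classical pathway opens with C1q, which binds antibody on a target. Its chains C1qb, C1qc and C1qa lie next to each other on the minus strand of chromosome 4 (GRCm39, 136607440 to 136626114). C1qb stood at 889, 797, 1012 and 973 normalized counts in the 4 WT NCD livers and at 2650.5, 1226, 1180.1, 1908 and 990.4 in the 5 WT SSD livers. C1qc stood at 872, 875, 1081 and 947 on NCD and at 2542, 1293, 1186, 2038 and 1040.2 on SSD. C1qa stood at 1126, 945, 1197 and 1196 on NCD and at 2538, 1313, 1099, 2142 and 985 on SSD. WT SSD replicates 1 and 4 held the highest values of all 3 chains, and the lowest SSD mouse, replicate 5, lay inside the NCD range for each chain.

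C1qb rose from 918 ± 95.2 (SD, n = 4) to 1591 ± 687 (SD, n = 5; log2 fold change 0.70, SE 0.24, adjusted p = 0.0391; exact permutation p = 0.0317) and C1qc from 944 ± 97.7 to 1619.6 ± 643 (log2 fold change 0.70, SE 0.23, adjusted p = 0.0322; exact permutation p = 0.0317). C1qa did not pass (log2 fold change 0.44, SE 0.25, adjusted p = 0.187; exact permutation p = 0.254), but with every library scaled to the same total all 3 chains passed as higher, as did 48.2% of all genes, and the distance of C1qa from the all-gene median stayed at 0.44. The calls of C1qb and C1qc were not stable to single libraries. C1qb lost its call without any of the 4 WT NCD mice and without WT SSD replicate 4 (adjusted p 0.0611 to 0.0968), and C1qc without WT NCD replicate 1, 2 or 5 and without WT SSD replicate 4 (adjusted p 0.0627 to 0.0849). Both also lost their calls with the replicate block, which drops WT SSD replicate 4 too (adjusted p = 0.0873 for C1qb and 0.0865 for C1qc). The sign stayed positive each time.

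None of the chains passed in Klrk1-/- mice. C1qb stood at 904, 901, 755 and 690.1 on NCD and at 1155, 889.8 and 957 on SSD, and C1qc at 809.9, 879.7, 746 and 675 and at 1158, 822 and 969. C1qa stood at 1147, 1179.6, 1106 and 974 on NCD and at 1325, 1189 and 1094 on SSD. The diets overlapped for all 3 chains, with log2 fold changes of 0.13 for C1qa (adjusted p = 0.349), 0.30 for C1qb (adjusted p = 0.0824) and 0.33 for C1qc (adjusted p = 0.0653). Without single mice they ranged from 0.05 to 0.19 for C1qa, from 0.19 to 0.38 for C1qb and from 0.21 to 0.45 for C1qc. C1qc did pass as higher without Klrk1-/- NCD replicate 2 (adjusted p = 0.0494) or SSD replicate 2 (adjusted p = 0.0193). With the same total in every library all 3 passed as higher, as did 37.4% of all genes, while C1qb lay 0.30 over the all-gene median under either scaling. The diet effect on the chains was not shown to differ between the genotypes: the interaction was -0.31, -0.40 and -0.37 for C1qa, C1qb and C1qc (adjusted p = 0.638, 0.533 and 0.552). Without WT SSD replicate 1 these were -0.12, -0.19 and -0.18, and without WT SSD replicate 4 that of C1qa was -0.18.

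**Figure D2:**
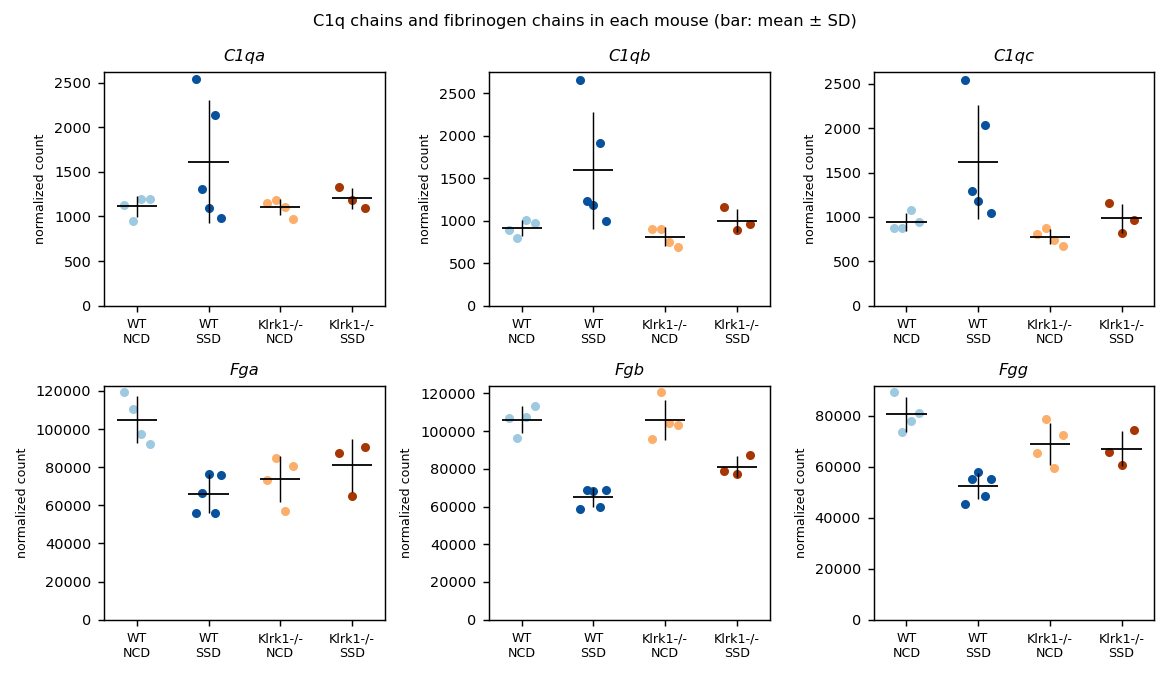
Normalized count (y axis, from 0) of the 3 C1q chains (top) and 3 fibrinogen chains (bottom) in each mouse of the 4 groups, with the group mean ± SD as a bar. C1q was highest in 2 WT SSD mice, whereas all 5 WT SSD mice lay under all 4 WT NCD mice for each fibrinogen chain; in Klrk1-/- mice the diets overlap for Fga and Fgg and not for Fgb.

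Macrophage markers moved beside C1q. Of 8 pan-macrophage markers, 5 rose in WT mice on SSD, and their summed normalized count was 3679 to 4760 on NCD and 4595 to 13717 on SSD. Of 6 Kupffer cell markers 3 rose, with a sum of 3632 to 3904 on NCD and 5172 to 11109 on SSD, and of 7 markers of recruited or lipid-associated macrophages 6 rose, with an overlapping sum of 1401 to 3136 on NCD and 2111 to 6953 on SSD. WT SSD replicate 1 held the highest pan-macrophage sum as well as the highest C1q. It also stood apart for Gpnmb, a marker of lipid-laden macrophages, with 1614 against 117 to 219 in the other 4 WT SSD mice. The Klrk1-/- livers had a pan-macrophage sum of 3297 to 3722 on NCD and 3329 to 3872 on SSD. Of the 8 pan-macrophage markers 3 rose and 1 fell there. Of the 6 Kupffer cell markers 1 rose, and their sum was 3091 to 3859 on NCD and 3883 to 5001 on SSD, with no overlap. Of the 7 recruited markers 4 rose, and their sum was 1323 to 1684 on NCD and 2139 to 2386 on SSD, with no overlap. Singly, 5 of the 7 lay higher with no overlap there (2313 of 12904 genes) and 6 in WT mice (1765 of 13091). Spp1 and Cd9 made up most of these sums. In Klrk1-/- mice Cd9 stood at 493 to 603 on NCD and 1201 to 1233 on SSD, and Spp1 at 678 to 984 and 724 to 1021. In WT mice Spp1 spanned 855 to 2519 on NCD and 697 to 2587 on SSD.

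How C1q stood to these markers within a mouse depended on the marker. The sum of the 3 chains over Csf1r, the receptor that macrophages need for growth, was 3.04 to 4.0 in WT NCD, 3.27 to 4.38 in WT SSD, 3.19 to 3.47 in Klrk1-/- NCD and 3.38 to 3.57 in Klrk1-/- SSD. Over Cd68, a lysosomal protein of macrophages, it was 13.6 to 16.7 in WT NCD and 4.15 to 7.85 in WT SSD, with no overlap, and 11.6 to 12.5 in Klrk1-/- NCD and 10.7 to 12.5 in Klrk1-/- SSD. Cd68 itself rose in WT mice from 195 ± 30.5 to 746 ± 247 (SD, n = 4 and 5; log2 fold change 1.89, SE 0.20, adjusted p = 3.9e-05), and its diet effect was smaller in Klrk1-/- mice (interaction -1.57, adjusted p = 0.0107). Per 1000 normalized counts of the hepatocyte-secreted members, C1q stood at 2.39 to 3.02 in WT NCD and 3.80 to 11.4 in WT SSD, and at 2.29 to 3.05 and 3.46 to 4.37 in the Klrk1-/- groups. How far the macrophage content of the livers accounts for the C1q values was not tested.

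**Figure D3:**
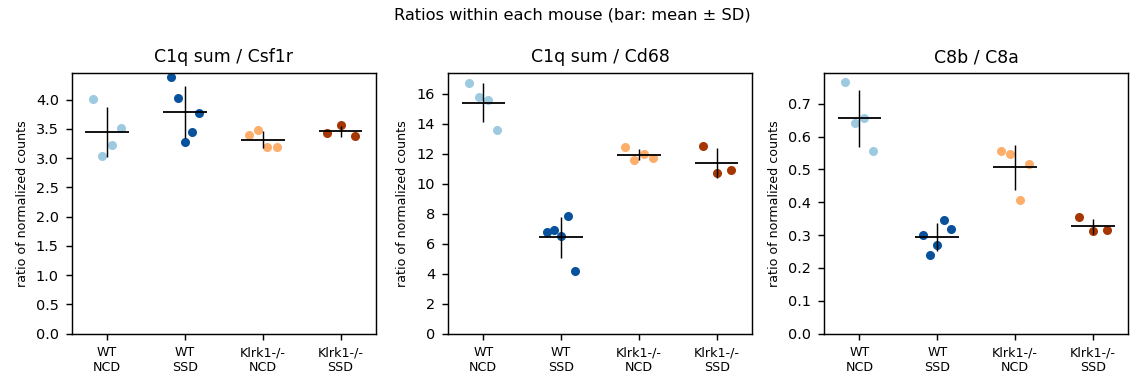
Ratios of normalized counts within each mouse (y axes, from 0), with the group mean ± SD as a bar: the C1q sum over Csf1r, the C1q sum over Cd68, and C8b over C8a. The first ratio overlaps in all 4 groups; the C1q to Cd68 ratio is 4.15 to 7.85 in WT SSD mice and 10.7 or higher in every other mouse; C8b over C8a is lower on SSD in both genotypes.

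Outside the members, the genes that followed C1q most closely over the 16 mice were Fcgr3, Fcgr1, Cyba, Slc7a8 and Axl. Their Pearson correlations with the mean log2 level of the 3 chains were 0.969, 0.967, 0.962, 0.961 and 0.960, out of 13068 genes. Csf1r stood at 0.953, Cd68 at 0.818 and Alb at -0.81. The points come from the same 16 libraries in 4 groups, so these values are a description only.

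The 5′ sequences of C1qb and C1qc are shown as those of the C1q chains that rose in WT mice. They are RefSeq promoter windows (GRCm38.p6, a build other than that of the counts; 250 bases before to 50 after the gene start), C1qb at chr4:136886151-136886450 and C1qc at chr4:136892865-136893164, both on the minus strand and written 5′ to 3′. Capitals mark matches to GAGGAA, the core letters that PU.1, a myeloid transcription factor, is known to bind, on either strand.
C1qb: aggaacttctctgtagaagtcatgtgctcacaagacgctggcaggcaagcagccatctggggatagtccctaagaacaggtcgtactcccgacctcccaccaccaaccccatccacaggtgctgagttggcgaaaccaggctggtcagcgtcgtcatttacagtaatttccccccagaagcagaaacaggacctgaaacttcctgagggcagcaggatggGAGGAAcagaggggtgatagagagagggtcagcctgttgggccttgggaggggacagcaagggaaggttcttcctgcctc
C1qc: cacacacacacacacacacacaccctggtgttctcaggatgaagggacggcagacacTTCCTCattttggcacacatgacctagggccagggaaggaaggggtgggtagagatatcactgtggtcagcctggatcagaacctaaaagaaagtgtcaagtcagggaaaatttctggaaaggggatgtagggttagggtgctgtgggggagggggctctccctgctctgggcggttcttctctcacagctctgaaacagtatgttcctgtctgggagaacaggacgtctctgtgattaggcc
Each window held 1 match, 30 bases before the start in C1qb and 193 before it in C1qc. GAGGAA stood in 28.3% of all 32851 windows, in 6 of the 36 matched members and in 3 of the 32 matched hepatocyte-secreted members. A member was counted if any of its windows held a match, so members and windows are unlike units. The windows of C1qa, Masp1, C2, C4b, Cfb, Cfi, Serping1, Proc, Kng1 and Plg were not matched.

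Properdin, which steadies the alternative convertase, passed as higher in WT mice, from 619 ± 87.6 to 1027 ± 341 (SD, n = 4 and 5; log2 fold change 0.68, SE 0.20, adjusted p = 0.0231). Cfp stood at 599, 514, 635 and 726 on NCD and at 1419, 792, 733, 1379 and 811 on SSD, with no overlap and the highest values again in replicates 1 and 4 (exact permutation p = 0.0159). The call was lost without WT NCD replicate 1 or 2, without WT SSD replicate 4 and with the replicate block, which drops that mouse too. In Klrk1-/- mice Cfp stood at 697, 667, 770 and 592 on NCD and at 976, 769 and 700 on SSD. It did not pass there (log2 fold change 0.25, SE 0.12, adjusted p = 0.15). Without single mice that value ranged from 0.11 to 0.35. With the same total in every library Cfp passed as higher there (0.51, adjusted p = 0.00641), as did 37.4% of all genes.

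Cfd, the protease that cleaves factor B, was the most uneven member. It stood at 18.1, 15.1, 9.12 and 14.3 normalized counts in WT NCD livers and at 9.3, 1255, 1133, 77.3 and 91.4 in WT SSD livers (log2 fold change 3.44, SE 1.14, adjusted p = 0.0351; exact permutation p = 0.0635). Replicates 2 and 3 were near or over 1100, replicates 4 and 5 were intermediate and replicate 1 was within the NCD range. The call was lost without any of the 4 WT NCD mice and without WT SSD replicate 2 or 3 (adjusted p 0.0671 to 0.083), and with quantile normalization (3.14, adjusted p = 0.0668), and without WT SSD replicate 1 the log2 fold change was 4.43 (adjusted p = 0.0011). In Klrk1-/- mice it stood at 12.6, 13.7, 2.49 and 6.15 on NCD and 0.966, 32.9 and 16.3 on SSD, and limma did not call it between these diets (adjusted p = 0.81). Of 5 adipocyte markers, Adipoq, Lep, Plin1 and Retn were at or near 0 in every mouse, at most 1.99, 0, 1.33 and 2.45 normalized counts. The fifth, Cidec, which hepatocytes also express in fatty liver, was 519 to 1407 in WT SSD mice and 9.12 to 28.9 in WT NCD mice.

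Among the members that start the classical and lectin pathways all 7 fell in WT mice and 5 of 7 in Klrk1-/- mice. C2, which supplies the protease of the classical convertase, fell from 3977 ± 302 to 2199 ± 286 in WT mice (SD, n = 4 and 5; log2 fold change -0.86, SE 0.11, adjusted p = 1.0e-04), and C4b, its partner, from 30532 ± 2266 to 17444 ± 2486 (log2 fold change -0.82, SE 0.12, adjusted p = 4.3e-04). C2 in Klrk1-/- mice fell by 0.41 and C4b by 0.60 on the log2 scale. The lectin proteases Masp1 and Masp2 and the lectin Mbl2 fell by 0.63 to 0.67 in WT mice and by 0.51 to 0.62 in Klrk1-/- mice. The lectin Mbl1 and the protease C1ra fell in WT mice, at -0.41 (adjusted p = 0.0448) and -0.29 (adjusted p = 0.0346), and stood at -0.10 and 0.00 in Klrk1-/- mice. With the same total in every library C1ra turned positive in WT mice without passing, and passed as higher in Klrk1-/- mice (0.26, adjusted p = 0.0300). C4b shares near-identical sequence with C4a, which was not analysed here. C2 shares 38.4% of its exon bases with the read-through gene Gm20547, and Masp2 60.3% with Tardbp on the other strand, so their counts depend on how shared reads were assigned.

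C3, the hub that all pathways split, and Cfb, the protease of the alternative convertase, passed in neither genotype. C3 stood at 121428, 133890.0, 101953 and 90346 in WT NCD and at 105485, 77213, 94182, 90637 and 98189.7 in WT SSD livers (log2 fold change -0.26, SE 0.17, adjusted p = 0.249). The diets overlapped, with NCD replicate 5 under 4 of the 5 SSD mice. Cfb stood at 38699.7, 32146, 29915 and 28938 in WT NCD and at 25134, 27515, 29796, 26769 and 28491 in WT SSD livers (log2 fold change -0.23, SE 0.12, adjusted p = 0.145), with SSD replicate 3 inside the NCD range. In Klrk1-/- mice the log2 fold changes were 0.10 (C3) and 0.07 (Cfb). With the same total in every library both passed as higher there (0.36, adjusted p = 0.0359, and 0.32, adjusted p = 0.0120), as did 37.4% of all genes. In WT mice both were then above 0 and did not pass. Cfb shares 65.7% of its exon bases with Gm20547 and 49.8% with Nelfe.

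The terminal complex had the lowest median of the 8 hepatocyte-secreted roles in both genotypes. All 6 members fell in each, with a median log2 fold change of -1.03 in WT and -0.99 in Klrk1-/- mice. Hc encodes C5, which starts pore assembly, C6 joins it, C8a, C8b and C8g encode the chains of C8, which enters the membrane, and C9 polymerizes to the pore. C8b stood at 14199, 11872, 11987 and 10484 normalized counts in WT NCD livers and at 3163, 2335, 3526, 4145 and 4174 in WT SSD livers, 3.55-fold lower (log2 fold change -1.83, SE 0.16, adjusted p = 8.5e-06). In Klrk1-/- livers C8b stood at 8398, 9162, 6345 and 8104 on NCD and at 3764, 3756 and 3286 on SSD (log2 fold change -1.14, SE 0.12, adjusted p = 3.2e-05). The diets were far apart in both genotypes, and the SSD values of the 2 genotypes overlapped.

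C6 was tight in WT NCD livers, at 9217, 9247, 9289.9 and 9366, and stood at 3522, 2785, 5699.7, 5231 and 5179 on SSD (log2 fold change -1.10, SE 0.18, adjusted p = 9.5e-04). In Klrk1-/- livers it stood at 7973, 10048, 6484 and 8641 on NCD and at 2746, 2197 and 2355 on SSD, 3.38-fold lower (log2 fold change -1.76, SE 0.13, adjusted p = 3.0e-06). Every Klrk1-/- SSD value lay under every WT SSD value. C9 stood at 21587, 16557, 20940.4 and 22007 in WT NCD, 7294, 7580.1, 9502, 10138 and 10181 in WT SSD, 15376, 16186, 15464 and 18069 in Klrk1-/- NCD and 6612, 7983 and 6318 in Klrk1-/- SSD livers, again with no overlap between diets. It fell from 20273 ± 2516 to 8939 ± 1401 in WT mice (log2 fold change -1.19, SE 0.13, adjusted p = 6.0e-05) and from 16274 ± 1251 to 6971 ± 889 in Klrk1-/- mice (log2 fold change -1.23, SE 0.10, adjusted p = 5.5e-06). Hc stood at 20877, 20434, 20005 and 20297 in Klrk1-/- NCD and 11304, 11121 and 11586 in Klrk1-/- SSD livers. Hc fell by 0.96 and 0.85, C8a by 0.67 and 0.52 and C8g by 0.70 and 0.41 on the log2 scale in WT and Klrk1-/- mice. C8g shares 12.3% of its exon bases with Fbxw5 on the other strand. All 6 terminal members stayed negative with the same total in every library in both genotypes.

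The ratio of the C8 chains differed between diets. C8a and C8b lie beside each other on opposite strands of chromosome 4 (GRCm39, C8b at 104623514 to 104661745 and C8a at 104672876 to 104733595), with their 3′ ends towards each other. The ratio of C8b to C8a within a mouse was 0.556 to 0.766 in WT NCD and 0.239 to 0.345 in WT SSD, and 0.406 to 0.556 in Klrk1-/- NCD and 0.313 to 0.354 in Klrk1-/- SSD. The diets did not overlap in either genotype. The promoter windows of both genes are printed because the ratio is formed from these genes (RefSeq, GRCm38.p6, C8b at chr4:104766067-104766366 on the plus strand and C8a at chr4:104876349-104876648 on the minus strand). Capitals mark matches on either strand to GTTAAT, a half-site of the liver factor HNF1, or to TTCNNNGAA, the STAT motif.
C8b: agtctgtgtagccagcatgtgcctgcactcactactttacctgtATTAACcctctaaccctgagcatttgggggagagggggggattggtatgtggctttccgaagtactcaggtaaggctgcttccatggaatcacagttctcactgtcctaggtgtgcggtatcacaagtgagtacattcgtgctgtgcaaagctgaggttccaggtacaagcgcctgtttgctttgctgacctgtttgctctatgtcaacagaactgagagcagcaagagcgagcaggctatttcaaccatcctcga
C8a: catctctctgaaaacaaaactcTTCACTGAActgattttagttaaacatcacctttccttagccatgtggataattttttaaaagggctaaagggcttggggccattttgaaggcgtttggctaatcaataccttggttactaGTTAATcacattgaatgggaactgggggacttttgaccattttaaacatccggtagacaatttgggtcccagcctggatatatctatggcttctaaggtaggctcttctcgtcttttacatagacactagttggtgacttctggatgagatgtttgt
C8b held 1 half-site, 206 bases before its start. C8a held 1 half-site, 107 before, and 1 STAT match, 228 before. No match to TTGCNNAA, the C/EBP motif, stood in either window.

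**Figure D4:**
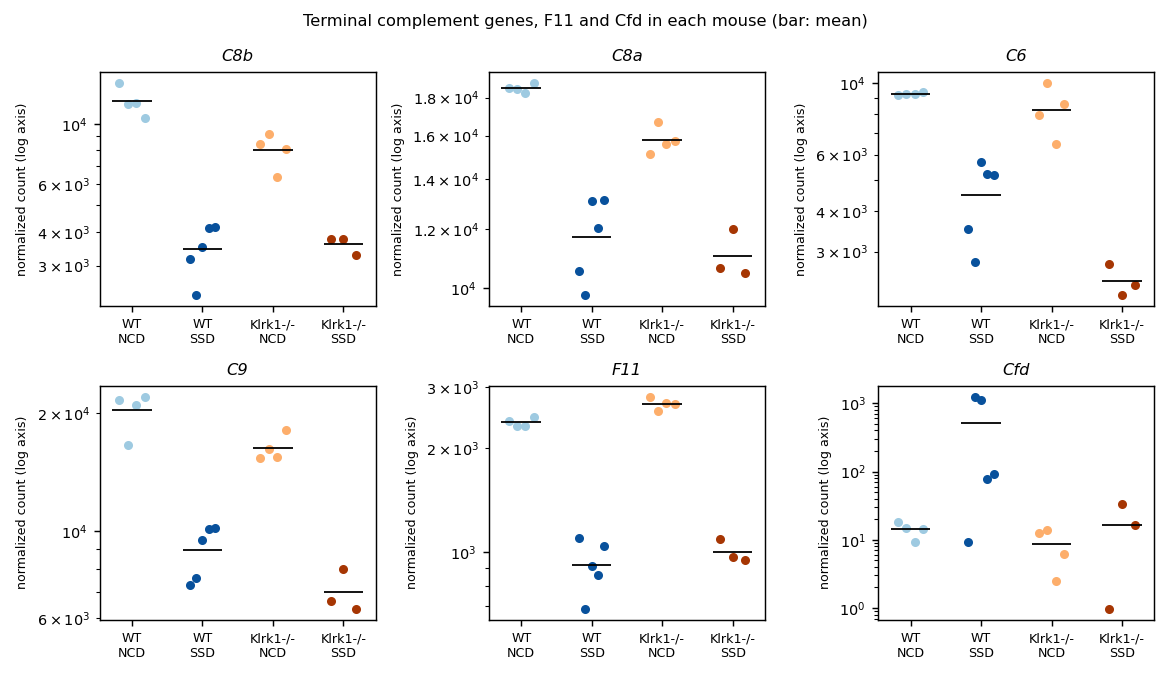
Normalized count on a log axis of C8b, C8a, C6, C9, F11 and Cfd in each mouse of the 4 groups, with the group mean as a bar. For the first 5 genes SSD and NCD mice do not overlap in either genotype, and C6 in Klrk1-/- SSD mice (2197 to 2746) lies under all WT SSD mice; Cfd spans 9.30 to 1255 within the WT SSD group.

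The complement regulators Cfi, which cleaves C3b and C4b, C4bp, its cofactor for C4b, Serping1, the C1 inhibitor, and Vtn, which blocks pore insertion, all fell in WT mice, by 0.39 to 0.62 on the log2 scale. With the same total in every library Vtn kept its call (-0.27, adjusted p = 0.0464), whereas Cfi, C4bp and Serping1 lost theirs, at -0.046, -0.048 and -0.082 (adjusted p = 0.671, 0.70 and 0.441). Of these, Vtn fell in Klrk1-/- mice (log2 fold change -0.42, SE 0.11, adjusted p = 0.0123), a call that was lost with the same total (-0.16, adjusted p = 0.182). Serping1 stood at 18755, 20646, 20456 and 20788 on NCD and at 16919, 17142 and 17406 on SSD there, with no overlap. It was just outside the threshold (log2 fold change -0.23, SE 0.08, adjusted p = 0.0514). With DESeq2 (adjusted p = 0.0145) and with a minimum mean of 50 (adjusted p = 0.0444) it passed as lower. Cfi and C4bp stood at -0.08 and -0.17, and with the same total Serping1, Cfi and C4bp turned positive.

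Fibrinogen is built from 3 chains whose genes form a cluster on chromosome 3 (GRCm39, Fgg at 82915031 to 82922356, Fga at 82933383 to 82940934 and Fgb at 82947448 to 82957170). Fga stood at 119450.0, 110397, 97304 and 92246 in WT NCD and at 56000.0, 66423, 76542, 55936 and 75630.1 in WT SSD livers. Fgb stood at 107031, 96099, 107472 and 113264 and at 58783, 68554, 68327, 59537 and 68859. Fgg stood at 89616, 73696, 77926 and 81125 and at 45479, 55136, 57949, 48565 and 55384. All 5 SSD mice lay under all 4 NCD mice for each chain, and each chain fell: Fga from 104849 ± 12379 to 66106 ± 10066 (log2 fold change -0.67, SE 0.16, adjusted p = 0.00674), Fgb from 105967 ± 7165 to 64812 ± 5170.1 (log2 fold change -0.71, SE 0.13, adjusted p = 0.00171) and Fgg from 80591 ± 6742 to 52503 ± 5238 (log2 fold change -0.62, SE 0.13, adjusted p = 0.00382). The exact permutation p was 0.0159 for each chain, the smallest this design allows. Fga lost its call at equal totals (-0.33, adjusted p = 0.0535) but not with TMM scaling, and stood at -0.25 (adjusted p = 0.123) after quantile normalization, and Fgg under the latter (-0.14, adjusted p = 0.261). Fgb stood at -0.36 with equal totals and at -0.33 after quantile normalization. With the replicate block, which also leaves out WT SSD replicate 4, no chain passed, at -0.61 for Fga, -0.68 for Fgb and -0.59 for Fgg (adjusted p = 0.0944, 0.0509 and 0.070).

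Of the 3 chains, Fgb alone passed in Klrk1-/- mice. Fga stood at 73149.7, 84693, 56973 and 80481 on NCD and at 87629.5, 65121 and 90414 on SSD (log2 fold change 0.14, SE 0.16, adjusted p = 0.561). Fgb stood at 95889.7, 120845, 104194 and 103059 on NCD and at 78882, 77101 and 87399.5 on SSD and fell (log2 fold change -0.38, SE 0.12, adjusted p = 0.0307). Fgg stood at 65288, 78884, 59593 and 72383 and at 66048, 60857 and 74409.9 (log2 fold change -0.04, SE 0.13, adjusted p = 0.85). Fga and Fgg overlapped between diets and Fgb did not. However, Fgb lost its call without Klrk1-/- NCD replicate 2 (adjusted p = 0.0967) or SSD replicate 1 or 2 (adjusted p = 0.11 and 0.085). It also lost it with the same total (-0.13, adjusted p = 0.393) and with no minimum mean (adjusted p = 0.109). With the replicate block, which leaves out Klrk1-/- NCD replicate 4, Fgb did not pass either (-0.39, adjusted p = 0.0719). The interaction was 0.81 for Fga, 0.58 for Fgg and 0.33 for Fgb (adjusted p = 0.101, 0.12 and 0.326). The ratio of Fga to Fgb was 0.814 to 1.15 in WT NCD, 0.94 to 1.12 in WT SSD, 0.547 to 0.781 in Klrk1-/- NCD and 0.845 to 1.11 in Klrk1-/- SSD, so the Klrk1-/- NCD mice lay under all others. F13b, the carrier subunit of the enzyme that crosslinks fibrin, passed in neither genotype (-0.14 and 0.18). With the same total in every library it passed as higher in Klrk1-/- mice (0.44, adjusted p = 0.0434).

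The promoter windows of the 3 fibrinogen chains follow because the 3 chains fell together in WT mice (RefSeq, GRCm38.p6, Fga at chr3:83025903-83026202 and Fgg at chr3:83007474-83007773 on the plus strand, Fgb at chr3:83049814-83050113 on the minus strand). Capitals mark matches on either strand to TTGCNNAA (C/EBP), GTTAAT (HNF1 half-site), TTCNNNGAA (STAT) or GAGGAA (PU.1). In Fgb the STAT match and 1 GAGGAA match overlap by 6 bases.
Fga: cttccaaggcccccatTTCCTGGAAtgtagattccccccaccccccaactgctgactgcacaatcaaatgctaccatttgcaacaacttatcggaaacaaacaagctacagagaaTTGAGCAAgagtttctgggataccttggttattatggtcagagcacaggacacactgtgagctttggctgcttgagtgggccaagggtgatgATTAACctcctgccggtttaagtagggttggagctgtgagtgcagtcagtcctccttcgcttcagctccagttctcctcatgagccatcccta
Fgb: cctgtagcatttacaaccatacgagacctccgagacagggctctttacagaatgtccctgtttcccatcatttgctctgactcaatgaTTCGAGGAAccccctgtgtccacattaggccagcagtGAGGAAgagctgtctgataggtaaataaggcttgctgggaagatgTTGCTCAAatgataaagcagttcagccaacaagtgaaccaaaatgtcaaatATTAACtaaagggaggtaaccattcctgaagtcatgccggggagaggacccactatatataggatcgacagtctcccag
Fgg: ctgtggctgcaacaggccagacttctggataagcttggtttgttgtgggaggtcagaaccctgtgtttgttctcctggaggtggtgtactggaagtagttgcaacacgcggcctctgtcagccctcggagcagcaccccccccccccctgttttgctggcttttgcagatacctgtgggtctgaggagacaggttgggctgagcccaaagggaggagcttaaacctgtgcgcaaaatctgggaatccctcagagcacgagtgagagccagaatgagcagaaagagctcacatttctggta
Counted in bases before the start, Fga held a C/EBP match at 135, a half-site at 43 and a STAT match at 234. Fgb held a C/EBP match at 80, a half-site at 29, a STAT match at 162 and GAGGAA at 159 and 125. Fgg held none of the 4 in this window. Over the 32 matched hepatocyte-secreted members, TTGCNNAA stood in 12 (37.5%) against 10.8% of all 32851 windows, GTTAAT in 10 (31.2%) against 7.10%, and TTCNNNGAA in 8 (25.0%) against 8.30%. The members were counted by gene, with a match in any window, and the background by window, which can raise the members' share. The motifs were chosen with the data known, and a match is no evidence of binding. Of 8 genes for transcription factors and cytokine receptor chains known to act on such genes in liver, 4 fell in WT mice on SSD (Onecut1 -2.73, Cebpa -0.64, Stat3 -0.54 and Nr1h4 -0.45) and 1 rose (Il6ra, 0.50). In Klrk1-/- mice limma called 0 of the 8, with 2 at an unadjusted p under 0.05, beside 5336 of all 12904 genes.

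Of the vitamin K-dependent proteases and their cofactors, 5 of 7 fell in WT and 2 of 7 in Klrk1-/- mice. F7, which starts clotting with tissue factor, fell by 0.76 in WT and 0.27 in Klrk1-/- mice, and F10, whose active form makes thrombin, by 0.74 and 0.49. F2, prothrombin itself, fell in WT mice (log2 fold change -0.44, SE 0.13, adjusted p = 0.0201) and stood at -0.04 in Klrk1-/- mice (adjusted p = 0.756). Proc, the anticoagulant protein C, stood at -0.41 in WT mice (adjusted p = 0.011) and F9, factor IX, at -0.26 (adjusted p = 0.0384). Neither passed in Klrk1-/- mice. Pros1, the cofactor of protein C, and F5, the cofactor of factor Xa, stood at 0.13 and 0.03 in WT mice and passed as higher with the same total in every library (F5 also with quantile normalization).

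Of the contact system, F11 fell most. It stood at 2396, 2319, 2318 and 2472 in WT NCD and at 1100.0, 686, 914, 863 and 1046 in WT SSD livers, 2.61-fold lower (log2 fold change -1.38, SE 0.12, adjusted p = 9.1e-06). In Klrk1-/- livers it stood at 2825, 2569.5, 2707 and 2684 on NCD and at 1095, 969 and 952 on SSD, 2.68-fold lower (log2 fold change -1.42, SE 0.08, adjusted p = 2.8e-07). The diets were far apart in both genotypes and the interaction was -0.04 (adjusted p = 0.914). Klkb1, prekallikrein, and Kng1, kininogen, fell by 0.40 and 0.70 in WT and by 0.30 and 0.50 in Klrk1-/- mice. F12, which starts the contact pathway, passed in WT mice (-0.25, adjusted p = 0.0399), where it turned positive with the same total, and stood at -0.19 in Klrk1-/- mice (adjusted p = 0.0756). Kng2 is a near copy of Kng1, so reads of the 2 may be split between them, and it passed in neither genotype (-0.23 and -0.22). In WT mice Kng2 did pass as lower with DESeq2 (adjusted p = 0.0437), in a fit over all 4 groups (0.0457) and without WT SSD replicate 1 (0.0369). In WT livers it stood at 5699, 5011, 5759 and 5057 on NCD and at 5067, 4242, 4206, 4785 and 4724 on SSD, where replicate 1 lay inside the NCD range. Klkb1 shares 43.2% of its exon bases with the read-through gene Gm45753.

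All 6 genes grouped as fibrinolysis and inhibitors, a role that takes in the clotting inhibitors, fell in WT mice and 4 of 6 in Klrk1-/- mice. Plg, plasminogen, fell from 64387 ± 6825 to 40357 ± 4649 in WT mice (log2 fold change -0.68, SE 0.13, adjusted p = 0.00251) and stood at -0.23 in Klrk1-/- mice (adjusted p = 0.101). Serpinc1, antithrombin, fell by 0.66 in WT and 0.37 in Klrk1-/- mice, and Serpind1, heparin cofactor II, by 0.73 and 0.51. Serpinc1 shares 34.4% of its exon bases with Zbtb37. Serpinf2, the plasmin inhibitor, fell by 0.65 and 0.41, and Cpb2, which slows fibrinolysis, by 0.70 and 0.34. Hrg, which binds heparin and plasminogen, fell by 0.33 in WT mice and stood at 0.01 in Klrk1-/- mice.

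On SSD, no member passed between Klrk1-/- and WT mice (limma, 13116 genes, of which 2.90% passed in either direction). The median log2 fold change of the 41 hepatocyte-secreted members was 0.07, against -0.00 over all genes. With the same total it was -0.04, against -0.11 over all genes, and with quantile normalization -0.04, against 0.03. An unadjusted p under 0.05 was reached by 13 of the 46 members and by 2999 of the 13116 genes. edgeR called 0 and DESeq2 9, of which 7 were higher and 2 lower in Klrk1-/- mice, beside 4.08% higher and 5.22% lower of all genes with DESeq2. The lower calls of DESeq2 were Cfd (-4.93, adjusted p = 0.0183) and C6 (-0.88, adjusted p = 0.00224). Its higher calls included C8g, Fgb and Fgg (0.51, 0.33 and 0.36, adjusted p = 0.00519, 0.0123 and 0.0250). Outside the C1q and fibrinogen chains, the largest differences were those of Cfd (log2 fold change -3.94, SE 1.5, adjusted p = 0.162; exact permutation p = 0.107), C6 (log2 fold change -0.84, SE 0.22, adjusted p = 0.0688; exact permutation p = 0.0357) and C8g (log2 fold change 0.52, SE 0.13, adjusted p = 0.0609; exact permutation p = 0.0357). C6 was lower in all 3 Klrk1-/- mice than in any WT mouse. C8g stood at 5577, 7801, 7005, 7357 and 8433 in WT and at 10576, 10765 and 9514 in Klrk1-/- SSD livers and was higher in all 3. For C6 and C8g the exact p is the smallest that 5 against 3 mice allow. Such full separation was found for 1 member lower and 10 higher, beside 1146 lower and 1206 higher of the 13116 genes. Without WT SSD replicate 1 the members that passed were C6, C8g and Cfd, without replicate 2 C6 alone and without replicate 5 C8g alone. With the replicate block, which leaves out WT SSD replicates 4 and 5, Cfd alone passed (-4.55, adjusted p = 0.0202). Without single mice the value of Cfd ranged from -4.93 to -2.73. The C1q chains stood at -0.33, -0.58 and -0.65 (C1qa, C1qb and C1qc) and the fibrinogen chains at 0.29, 0.33 and 0.35 (Fga, Fgb and Fgg), with adjusted p from 0.165 to 0.523. Without WT SSD replicate 1 C1qa stood at -0.14 and C1qb at -0.37, and without WT SSD replicate 4 C1qa stood at -0.20. With the same total in every library the all-gene median moved to -0.11, C6 passed as lower, at -0.95, and C1ra, C3, C8b, Serping1, F12 and Serpinf2, none of them called, changed sign.

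On NCD, 6 members were lower in Klrk1-/- mice and none higher, against 6.66% lower of 12845 genes. With quantile normalization 5 were lower and 2 higher, and without WT NCD replicate 1 there were 4 lower and 1 higher. Over all genes 874 were lower and 901 higher of 12845 with quantile normalization, and 468 and 499 of 12877 without that mouse. The median of the 41 hepatocyte-secreted members was -0.18, against 0.00 over all genes, and -0.10 with quantile normalization. The 6 were C8b (log2 fold change -0.61, SE 0.12, adjusted p = 0.00955), C2 (log2 fold change -0.54, SE 0.09, adjusted p = 0.00396), Fga (log2 fold change -0.51, SE 0.15, adjusted p = 0.0365), Cfb (log2 fold change -0.41, SE 0.11, adjusted p = 0.0268), Cpb2 (log2 fold change -0.40, SE 0.11, adjusted p = 0.0315) and Cfi (log2 fold change -0.37, SE 0.11, adjusted p = 0.0426). For each of them all 4 Klrk1-/- mice lay under all 4 WT mice (exact permutation p = 0.0286, the smallest that 4 against 4 mice allow). Such full separation was found for 11 members lower and 3 higher, beside 1257 lower and 1226 higher of the 12845 genes. C2 stood at 4269, 4186, 3818 and 3633 in WT and at 3028, 2606, 2477 and 2872 in Klrk1-/- NCD livers, and Cfb, with the WT values given above, at 23213, 24780.4, 24222 and 24589. Cpb2 stood at 11522, 10268, 9982 and 8902 in WT and at 8056, 7947, 6467 and 8433 in Klrk1-/- livers. Cfi stood at 16934, 13795, 14011 and 12254 in WT and at 10295, 11283, 10079.5 and 12203 in Klrk1-/- livers. WT replicate 1 was the highest for all 4 of these genes. C8b and C2 kept their calls under every scaling, minimum mean, tool and left-out mouse tried. Fga lost its call with quantile normalization (-0.33, adjusted p = 0.0803), with no minimum mean and without WT NCD replicate 1, 2 or 3 or Klrk1-/- NCD replicate 1 or 3. Cpb2 and Cfi each lost theirs without any 1 of 6 mice (replicates 1, 2 and 3 of either genotype), and Cfi also with no minimum mean. Cfb lost its call with quantile normalization (-0.23, adjusted p = 0.0866) and without WT NCD replicate 2 or Klrk1-/- NCD replicate 1, 2 or 3. F13b (-0.61), Cfd (-0.81) and Serpind1 (-0.34) had the largest changes that did not pass (adjusted p = 0.0546, 0.261 and 0.074), and Fgb stood at -0.00 and Fgg at -0.23. Without single mice Cfd ranged from -1.08 to -0.39. F13b stood at 2598, 2819, 2002 and 1345 in WT and at 1369, 1368, 1159 and 1673 in Klrk1-/- livers, and Serpind1 at 14130.4, 13143, 10947 and 10149 and at 8725, 8785, 9529.8 and 10963. Both overlapped between genotypes. F13b passed with edgeR (adjusted p = 0.040), DESeq2 (0.00773), a fit over all 4 groups (0.0415), the replicate block (-0.92, adjusted p = 0.00114) and without WT NCD replicate 5 or Klrk1-/- NCD replicate 4. Serpind1 passed with the same total, DESeq2, the replicate block and without WT NCD replicate 5 (adjusted p 0.0226 to 0.046). The block leaves out WT NCD replicate 5 and Klrk1-/- NCD replicate 4. The count was 3 without WT NCD replicate 2 or 3 or Klrk1-/- NCD replicate 2, 2 without Klrk1-/- NCD replicate 1 or 3, and 9 without WT NCD replicate 5. Lower calls over all genes ranged from 365 of 12835 without Klrk1-/- NCD replicate 3 to 1123 of 12829 without WT NCD replicate 5.

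The test of whether the diet effect itself differed between genotypes called no member (limma, 13068 genes, 0.880% of them called). Of the 46 members 13 reached an unadjusted p under 0.05, beside 2256 of the 13068 genes. edgeR called 0 and DESeq2 called 3 (Fga, Fgg and Plg, named after their values were seen), all as positive, beside 1.42% of all genes with DESeq2. The largest values were those of Cfd (log2 fold change -3.12, SE 1.67, adjusted p = 0.346), Fga (log2 fold change 0.81, SE 0.23, adjusted p = 0.101) and C8b (log2 fold change 0.69, SE 0.23, adjusted p = 0.141), where a positive value means a diet log2 fold change that is higher in Klrk1-/- than in WT mice. C6, which went the other way, stood at -0.66 (adjusted p = 0.215). Without single mice the interaction of Cfd ranged from -4.11 to -1.91. The 41 hepatocyte-secreted members had a median interaction of 0.22, against 0.00 over all genes, and 4 of them were negative. With quantile normalization the median was -0.002, against 0.02, and 21 were negative.

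Receptors, surface regulators and other genes of the same cascades were read from a list of 63 genes outside the members. In WT mice on SSD, 3 of 25 tested complement genes rose and 8 fell, and 10 of 26 tested coagulation genes rose and 7 fell, beside 17.3% higher and 17.6% lower over all genes. Among the largest changes were rises of Plaur, the urokinase receptor (log2 fold change 2.53, SE 0.71, adjusted p = 0.0171), Itgax, a chain of complement receptor 4 (log2 fold change 2.28, SE 0.41, adjusted p = 0.00151), Anxa2, a plasminogen receptor (log2 fold change 2.17, SE 0.31, adjusted p = 3.0e-04), Plau, urokinase (log2 fold change 1.69, SE 0.27, adjusted p = 7.9e-04), and Procr, the receptor of protein C (log2 fold change 1.44, SE 0.34, adjusted p = 0.00714). WT SSD replicate 1 held the highest value of all 5, for example 327 normalized counts of Itgax against 50.6 to 99 in the other 4 WT SSD mice and 3734 of Anxa2 against 940 to 1523. In Klrk1-/- mice 3 of 24 complement genes rose and 5 fell, and 4 of 23 coagulation genes rose and 6 fell, beside 13.4% and 16% over all genes. Serpine2, a thrombin inhibitor, fell most (log2 fold change -1.35, SE 0.30, adjusted p = 0.00618), Tfpi2 and Serpina10 stood at -0.87 and -0.81, and Thbd, Anxa2 and Itgax rose by 1.08, 0.87 and 0.69.

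Thbd, thrombomodulin, which turns thrombin to anticoagulant use, differed by both diet and genotype. It stood at 56.7, 44.3, 45.6 and 45.2 in WT NCD, 108, 92.9, 106, 88.8 and 115 in WT SSD, 31.02, 24.9, 27.4 and 31.98 in Klrk1-/- NCD and 55.05, 67.5 and 63.4 in Klrk1-/- SSD livers. No groups compared overlapped. It was lower in Klrk1-/- mice on SSD (log2 fold change -0.71, SE 0.14, adjusted p = 0.0329), as was Mcfd2, a transport receptor of factors V and VIII (log2 fold change -0.44, SE 0.10, adjusted p = 0.0414), and these were the only genes of the list that passed there. On NCD 1 of the list was higher in Klrk1-/- mice (Plau, 0.87) and 7 were lower, the largest being C7 (-1.73, at 4.54 to 16.8 normalized counts on average), Thbd (-0.72), Mcfd2 (-0.54), Clu (-0.51) and Serpina10 (-0.49). None passed the interaction test in limma, with 11 of the 51 tested at an unadjusted p under 0.05, beside 2256 of all 13068 genes.

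Other liver genes were read beside the hepatocyte-secreted members. Of 10 hepatocyte markers 4 fell in each genotype, with Tat at -2.05 and Cps1 at -1.19 in WT mice, while Alb (-0.46, adjusted p = 0.277) and Hnf4a (-0.09, adjusted p = 0.587) did not pass. For Alb, all 5 WT SSD values (1066880 to 1370800 normalized counts) nevertheless lay under all 4 WT NCD values (1584260 to 1865450). The summed hepatocyte markers were 2582140 to 2934450 in WT NCD and 1793730 to 2128260 in WT SSD livers. Of 13 acute-phase genes 2 rose and 6 fell in WT mice (Saa3 2.48, Orm1 -2.35), and 1 rose and 9 fell in Klrk1-/- mice. Of 5 endothelial markers 4 rose and of 5 stellate cell markers 3 rose in WT mice. Of 2 neutrophil and 3 platelet markers tested, limma called 0 in WT mice, and 0 reached an unadjusted p under 0.05. The part of these cell types in the members' values was not tested.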

How the data were processed

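Whole-liver RNA of 16 mice was sequenced as single 100-base reads. The submitters' notes name FastQC, STAR and GRCm39, and the study's methods FeatureCounts with GENCODE annotation; whether counting used strand is not given in the sources used here. The labels name an mRNA kit, the methods total RNA. The authors deposited 1 table of normalized counts, taken here as a signal since they are gene read counts divided by 1 size factor per library. Multiplying back gave whole reads (within 0.01 reads), on which edgeR and DESeq2 were run as alternatives. The deposited GC fraction and gene length per gene were not used for tests.

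Normalized counts were taken as log2(value + 1). Genes with a mean of at least 10 in the mice compared were tested with limma (3.58.1, trend, two-sided, R 4.3.3), adjusted over all genes by Benjamini-Hochberg, and passed at an adjusted p under 0.05. Fold changes are on that scale. edgeR was 4.0.16 and DESeq2 1.42.0. Single members also had an exact two-sided permutation test over mice. Replicates of a group are separate livers by the labels, and 25 pairs within groups all differed beyond sampling noise (chi-square per degree of freedom 14.2 to 101). Per-mouse values were printed for the C1q and fibrinogen chains, for the 5 other members with the largest change that passed and the 3 with the largest that did not in each comparison, and for Cfp in WT mice and Thbd, chosen after their values were seen. The limma fit of each comparison was also run on simulated counts, and the results of those runs are not reported here. The members and lists (8 roles, other pathway genes, markers of hepatocytes, macrophages, Kupffer and recruited cells, adipocytes, endothelium, stellate cells, neutrophils and platelets, acute-phase genes and regulators) were chosen with earlier results of these data known. The values of 1 other pathway gene are not reported here. Alternatives were other pseudocounts, minimum means, scalings, tools, designs, a 1.5-fold limit and leaving out each mouse.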

Additional observations from a re-analysis of the deposited data

Results flagged for a closer look

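Single mice stood apart from the rest of their group in 4 of 138 member and group combinations with 4 or 5 mice, where chance gives about 1 in 20. Mbl1, a mannose-binding lectin, was 8094 normalized counts in WT NCD replicate 1 and 5378 to 5813 in the other 3 mice. Serpinc1, antithrombin, was 76310.3 in the same mouse and 63371 to 65022 in the others. Serping1, the C1 inhibitor, was 18755 in Klrk1-/- NCD replicate 1 and 20456 to 20788 in the others. Cpb2, which slows fibrinolysis, was 7486 in WT SSD replicate 3 and 5724 to 6208 in the others.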

How the results depend on the processing

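For the members named, 1200 pairs of a result and an alternative setting were run: 1079 kept direction and side of the threshold, 55 lost the call, 39 gained one and 27 reversed. The 39 members that passed in WT mice became 21 with quantile normalization, and 30 to 39 when single mice were left out. The 22 in Klrk1-/- mice became 8 with a 1.5-fold limit and 18 to 23 without single mice. For the genotypes on SSD, the 0 members became 1 with the same total, 9 with DESeq2, 4 in a fit over all 4 groups, and 0 to 3 without single mice. Over all genes 88 were higher and 376 lower of 13116 with the same total, and 420 and 537 in the 4-group fit. The 3 arose without WT SSD replicate 1, beside 292 higher and 425 lower of 13053 genes. On NCD the 6 members became 12 with DESeq2, 1 with a 1.5-fold limit and 2 to 9 without single mice. DESeq2 called 1068 higher and 1159 lower of 12845 genes there. The interaction's 0 became 3 with DESeq2 and stayed 0 without single mice. The same total in every library turned C3 (0.0898), Cfb (0.117) and Kng2 (0.12) in WT mice and Serping1 (0.0255) and Fgg (0.219) in Klrk1-/- mice. Quantile normalization turned C3 (0.186), Cfb (0.215) and Kng2 (0.0517) in WT mice, Fgg in Klrk1-/- mice (0.142), Fgb between genotypes on NCD (0.165) and the Fgb interaction (-0.0322), and edgeR gave 0.00335 for Fgb on NCD. None of these had passed. Without single mice, Cfd in Klrk1-/- mice ranged from -0.10 to 1.53, Fgg there from -0.11 to 0.0302, and on NCD C1qa from -0.0939 to 0.0414 and Fgb from -0.067 to 0.0442. The causes were not tested. Over 13 pairs of same-numbered mice their deviations from the group mean correlated at -0.133 to 0.246, and 5 matched their own number best. So few pairs cannot show whether the replicate numbers pair the mice. The block fit keeps only mice whose number occurs in both groups, so in WT mice it also drops WT SSD replicate 4, without which 32 members passed with no block. With the replicate block, 22 members passed in WT mice and 1 (Cfd) between genotypes on SSD, and on NCD C1qa stood at 0.0768 and Fgb at 0.0424. Groups of 3 to 5 mice limit these results, and low counts limit Cfd.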
